A study of Mus musculus with 6 samples.

Results

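Long non-coding RNAs (lncRNAs) are transcripts without a long open reading frame, and the probe sets that read them on mouse Affymetrix arrays are described here. The 1225 lncRNA probe sets, for 1211 genes, were chosen by annotation and signal. Each was named for 1 gene whose RefSeq biotype is lncRNA, and each had a mean over the 6 arrays at or above 1.92, the median of all 65956 probe set means on the log2 scale. Of 3426 lncRNA probe sets (3343 genes), 2201 lay below that level and were left out of the main comparison. The rule used the mean over both groups and not the difference between them, so levels are given as a description and differences are tested. The members and the lists were chosen with earlier results of these data known, so counts by list are descriptions. A total of 77 members are named by a rule on host genes, lists and size of change. Of all members, 1074 carry provisional symbols (Gm, Rik and similar) and 151 have other names.

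The cells were sorted from bone marrow as Lineage- c-Kit+ Sca1+ (LSK), a gate that takes blood stem cells and early multipotent progenitors. The knockout group (3 arrays) was miR-21flox/flox:Mx1-Cre+ and the littermate control group (3 arrays) was miR-21flox/flox:Mx1-Cre-, so that both carried the floxed miR-21 alleles. Mice of both groups were given 7 intraperitoneal doses of 250 µg pIpC starting when they were 4 to 6 weeks old, and the marrow was used 4 weeks after that. A synthetic double-stranded RNA, pIpC induces interferon and so turns on the Mx1 promoter and with it the Cre recombinase, in blood cells and in other interferon-responsive tissues. Only the knockout carried Cre, so the loss of miR-21 and the presence of Cre cannot be told apart. The samples are called biological replicates. The sources used here do not say whether 1 mouse or a pool stands behind each, so a p-value covers no more than the spread between the arrays. In bulk RNA, fewer cells of a type and less RNA per cell cannot be told apart either.

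Some lncRNAs are the primary transcripts of microRNAs or carry small nucleolar RNAs (snoRNAs) in their introns, and are called host genes. Others act in the nucleus, as scaffolds of nuclear bodies or as silencers of neighbouring genes, and several are used in blood stem cells and myeloid cells. Many are transcribed divergently from, or antisense to, a protein-coding gene. MicroRNAs such as miR-21 act mainly on RNAs in the cytoplasm through pairing with the seed, bases 2 to 8 of the mature strand.

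Values per array are log2 values as the authors deposited them. Means are given ± SD with n = 3 arrays per group, changes are knockout minus control on the log2 scale ± SE, and adjusted p-values are from limma with Benjamini-Hochberg adjustment over all 19342 probe sets tested. A probe set was called at an adjusted p under 0.05. Array medians lay between 1.89 and 1.95, and arrays correlated at 0.995 to 0.997 within groups and 0.987 to 0.991 between groups. The probe set annotated to Mir21a also covers its host gene Vmp1 and stood at 5.68 ± 0.07 in the knockout and 5.63 ± 0.02 in control, so it does not check the deletion. Of the LSK marker genes, Ly6a (Sca1) had no probe set of its own, and Kit was at 8.15 ± 0.04 in the knockout and 8.61 ± 0.07 in control. In the knockout, 7 of 8 tested stem and progenitor markers were called lower (summed log2 values 48.9 to 49.5, against 51.9 to 52.4 in control) and Slamf1 was called higher. All 10 of 10 myeloid precursor and neutrophil markers were called higher, with sums of 73.7 to 74.9 in the knockout and 56.3 to 59.1 in control. Both erythroid markers tested and 1 of 2 monocyte markers were called higher, and none of the 3 B cell, 2 T cell and 4 stromal markers tested was called. The part of these shifts in the lncRNA results was not tested.

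The mature microRNAs below show the deleted microRNA and those encoded within the 3 host lncRNAs that were called and whose RefSeq span holds the microRNA gene. Capitals mark the seed. The sequences are from RefSeq (GRCm38.p6). Ftx spans Mir374b (miR-374b-5p at chrX:103573112-103573133, minus strand) and Mir421 (miR-421-5p at chrX:103572966-103572986, minus strand). The RNA 2610307P16Rik spans Mir6368 (chr13:28710796-28710816, minus strand), and Gm16863 spans Mir7680 (miR-7680-5p at chr16:21256047-21256066, minus strand). The mature strand miR-21a-5p lies at chr11:86584120-86584141 on the minus strand.
miR-21a-5p: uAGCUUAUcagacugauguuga
miR-374b-5p: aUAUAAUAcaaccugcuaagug
miR-374b-3p: gGUUGUAUuaucauuguccgag
miR-421-5p: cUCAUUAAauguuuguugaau
miR-6368: cUGGGAAGcaguggaggggag
miR-7680-5p: aUUCCAGUgaacaagcaguu
Over miR-21a and the host members, 19 mature strands were listed and they had 19 different seeds. None of those listed for a host lncRNA thus shared the seed of miR-21a. Among them, those of the microRNA gene Gm51285 lie within Mir9-3hg on the strand opposite to Mir9-3. Whether Gm10865 and its Mir6956 lie on the same strand was not listed. No mature strand was listed for the microRNAs of Gm15816, Carmn and Mir99ahg, so their seeds were not compared.

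The promoters below belong to 5 members picked from those called, and are shown for what they hold near the start site. Each runs from 250 bases before to 50 bases after the first start site in the RefSeq table (GRCm38.p6). They are Lncpint (chr6:31218425-31218724, minus strand), Firre (chrX:50635272-50635571, minus strand), Morrbid (chr2:128429302-128429601, minus strand), I730030J21Rik (chr15:100732688-100732987, minus strand) and Map2k3os (chr11:60931818-60932117, minus strand). Capitals mark matches, on either strand, to 6 short motifs that do not overlap in these windows. They are the letters GAGGAAG for the myeloid factor PU.1, the letters TGACTCA for AP-1, which reads TGAGTCA on the other strand, and the letters TGTGGTT for RUNX. The others are AGATAAG for the GATA factors, CACGTG for the E-box and TATAAA for the TATA box.
Lncpint promoter: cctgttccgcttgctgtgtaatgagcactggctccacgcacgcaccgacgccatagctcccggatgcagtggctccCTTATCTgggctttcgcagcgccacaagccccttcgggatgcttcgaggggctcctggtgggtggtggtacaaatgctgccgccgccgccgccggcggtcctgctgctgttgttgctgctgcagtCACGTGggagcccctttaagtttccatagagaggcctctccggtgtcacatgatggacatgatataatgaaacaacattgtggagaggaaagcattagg
Firre promoter: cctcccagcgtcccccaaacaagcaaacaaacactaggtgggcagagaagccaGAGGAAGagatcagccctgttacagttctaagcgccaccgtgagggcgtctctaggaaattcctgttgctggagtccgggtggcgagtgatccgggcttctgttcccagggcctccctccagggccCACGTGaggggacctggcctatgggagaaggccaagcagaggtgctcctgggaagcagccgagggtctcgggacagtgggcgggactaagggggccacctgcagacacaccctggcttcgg
Morrbid promoter: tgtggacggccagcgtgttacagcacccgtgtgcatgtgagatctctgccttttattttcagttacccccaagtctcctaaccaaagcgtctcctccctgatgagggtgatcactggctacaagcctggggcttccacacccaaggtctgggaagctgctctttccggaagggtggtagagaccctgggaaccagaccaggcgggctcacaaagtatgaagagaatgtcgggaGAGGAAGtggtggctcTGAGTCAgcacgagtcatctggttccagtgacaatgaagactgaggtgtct
I730030J21Rik promoter: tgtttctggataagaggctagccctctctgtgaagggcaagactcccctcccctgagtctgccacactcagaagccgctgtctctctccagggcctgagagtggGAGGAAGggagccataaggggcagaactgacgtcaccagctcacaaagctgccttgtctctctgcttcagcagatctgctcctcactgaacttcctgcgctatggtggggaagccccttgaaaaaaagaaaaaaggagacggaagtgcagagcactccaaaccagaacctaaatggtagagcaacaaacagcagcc
Map2k3os promoter: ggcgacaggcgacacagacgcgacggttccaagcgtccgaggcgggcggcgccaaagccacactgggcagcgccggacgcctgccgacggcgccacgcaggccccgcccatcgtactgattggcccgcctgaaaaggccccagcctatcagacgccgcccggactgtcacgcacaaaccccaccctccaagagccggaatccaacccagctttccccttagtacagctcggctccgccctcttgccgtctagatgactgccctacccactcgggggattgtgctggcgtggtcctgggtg
The Lncpint window held a GATA match and an E-box, Firre a PU.1 match and an E-box, Morrbid a PU.1 and an AP-1 match, and I730030J21Rik a PU.1 match. The Map2k3os window held none of these letters and 30 CG dinucleotides, against a median of 8.5 for the 968 member genes with a promoter sequence. The PU.1 letters lay in 14.9% of those 968 promoters, so the picked windows do not stand for the members as a whole. A match is a description of the letters and not a binding site.

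The snoRNA host lncRNAs came first. Their spliced exons are poorly translated, and the snoRNAs in their introns guide chemical modification of ribosomal and other RNAs. Of 18 host members, 2 were called higher, Rab26os and Snhg18, and 1 was called lower, Snhg17, beside 13.7% of all members and 31.2% of all probe sets called in either direction. The median change over the 18 was 0.14, against 0.07 over all probe sets tested. With the replicate number as a block in the fit, 8 were called higher and 2 lower, where 7293 of all 19342 probe sets were called.

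Rab26os, named for the opposite strand of Rab26, had knockout values of 7.03, 7.00 and 7.09 and control values of 6.82, 6.50 and 6.76. All knockout arrays lay above all control arrays, and the change was 0.34 ± 0.09 (adjusted p = 0.0163). Snhg18, a host of Snord123, had knockout values of 2.43, 2.33 and 2.34 and control values of 2.16, 1.85 and 2.14, again without overlap (change 0.31 ± 0.09, adjusted p = 0.0265). Snhg17 had knockout values of 4.50, 4.60 and 4.55 and control values of 4.80, 4.76 and 4.68, and fell by 0.19 ± 0.06 (adjusted p = 0.0389). The 3 calls were not equally firm. Rab26os was not called without knockout replicate 3 (adjusted p = 0.0564), and Snhg18 not without knockout replicate 1 (0.0829), knockout replicate 3 (0.0593) or control replicate 2 (0.0581). Snhg17 was not called without knockout replicate 1 (0.132), knockout replicate 3 (0.0996), control replicate 1 (0.104) or control replicate 2 (0.0966).

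Other snoRNA hosts had changes of similar size that did not pass. Snhg5 had knockout values of 5.27, 4.98 and 5.40 and control values of 5.07, 4.69 and 5.06 (change 0.28 ± 0.13, adjusted p = 0.127). Replicate 2 was the lowest of both groups, and with the block the adjusted p was 0.00789. Snhg9 had knockout values of 5.06, 5.05 and 5.03 and control values of 5.03, 4.70 and 4.59 (change 0.28 ± 0.10, adjusted p = 0.0675, with the block 0.0360). Without control replicate 1 the adjusted p of Snhg9 was 0.00413 and its change 0.41. Snhg6 stood at 4.81 ± 0.10 in the knockout and 4.61 ± 0.17 in control (change 0.20 ± 0.09, adjusted p = 0.120, with the block 0.0381). The block also added 2700038G22Rik (change 0.22, adjusted p = 0.0806, with the block 0.0365), 9330159M07Rik (0.21, 0.0947, with the block 0.0227) and Gm26590 (0.17, 0.0501, with the block 0.0433). Snhg15 stood at 5.01 ± 0.04 in the knockout and 5.19 ± 0.07 in control, lower in all 3 knockout arrays, at an adjusted p of 0.0520 (with the block 0.0367). Snhg10 (change -0.12), Snhg11 (0.13) and 1700120C14Rik (0.15) were not called in either fit.

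For 6 snoRNA genes inside these hosts a probe set of their own was tested. Snora78, within Snhg9, was called higher by 0.34 ± 0.08 (adjusted p = 0.0134). Snord87, within Snhg6, was called lower by -0.45 ± 0.11 (adjusted p = 0.0147), opposite in sign to the host's own value. Snord71, within Gm17344, was called lower by -0.62 ± 0.08 (adjusted p = 0.000848), while Gm17344 had a change of 0.11 ± 0.06 (adjusted p = 0.191). Snord93 within 2700038G22Rik (0.07 ± 0.15), Snord8 within Gm26590 (0.04 ± 0.06) and Gm25129 within Snhg11 (0.13 ± 0.07, adjusted p = 0.174) were not called. The strand of these snoRNA genes was not listed, so the host was set by span alone.

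**Figure D1:**
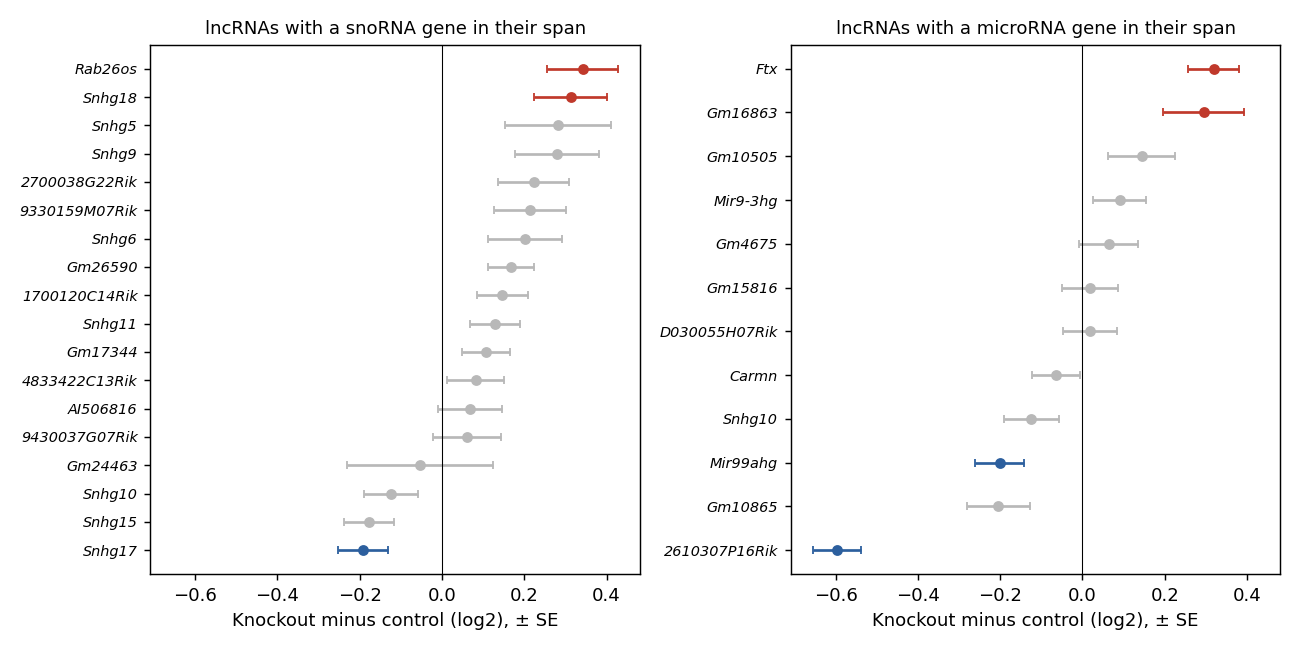
Change (knockout minus control, log2, ± SE from limma) of the 18 snoRNA host members on the left and the 12 microRNA host members on the right, with called members in red (higher) or blue (lower) and the rest in grey. Among the snoRNA hosts 14 of 18 changes are above 0 and Snhg17 is lowest at -0.19, while among the microRNA hosts 2610307P16Rik stands apart at -0.60.

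Of 12 microRNA host lncRNAs, 2 were called higher (Ftx and Gm16863) and 2 lower (2610307P16Rik and Mir99ahg). That is 33.3%, near the 31.2% of all probe sets called, and their median change was 0.02. The largest change was that of 2610307P16Rik, whose nearest coding gene is Sox4, a transcription factor of blood progenitors. It had knockout values of 6.51, 6.45 and 6.46 and control values of 7.10, 7.09 and 7.00, a change of -0.60 ± 0.06 (adjusted p = 0.000131). The groups were separated by far more than their spread. The probe set of Mir6368, whose sequence is shown above, fell with its host by 1.02 ± 0.15 (adjusted p = 0.00134), and Sox4 fell by 0.27 ± 0.06 (adjusted p = 0.00775).

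Ftx, an RNA of the X inactivation centre that is known as a positive regulator of Xist and the primary transcript of miR-374b and miR-421, had knockout values of 3.70, 3.72 and 3.58 and control values of 3.39, 3.35 and 3.31. All knockout arrays were higher (change 0.32 ± 0.06, adjusted p = 0.00533). Gm16863, the host of miR-7680, had a change of 0.30 ± 0.10 (adjusted p = 0.0481) with groups that overlapped, and leaving out any array but knockout replicate 1 ended that call (adjusted p 0.0542 to 0.134). Mir99ahg, named as the host of miR-99a, a microRNA of blood stem cells, had knockout values of 1.97, 1.88 and 1.85 and control values of 2.13, 2.09 and 2.09. It fell by 0.20 ± 0.06 (adjusted p = 0.0307). Its knockout mean of 1.90 lay under the level threshold, so it was a member only through the control mean of 2.10. Leaving out any array but knockout replicate 1 ended its call too (adjusted p 0.0570 to 0.107). Other microRNA hosts that were not called were Mir9-3hg (0.09 ± 0.06), Gm15816 (0.02 ± 0.07), which spans Mir486, D030055H07Rik (0.02 ± 0.07), which spans Mir135a-1 and Carmn (-0.06 ± 0.06), which spans Mir143 and Mir145a. Gm10505 (0.14 ± 0.08), Gm4675 (0.06 ± 0.07) and Snhg10, given above, were not called either. Gm10865, which spans Mir6956, had a change of -0.20 ± 0.08 without overlap and was not called (adjusted p = 0.0709, and 0.0217 without control replicate 1).

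The stem cell and blood list held 9 members. Of these, 2 were called higher (Lockd and Morrbid) and 2 lower (Lncpint and Malat1), beside 31.2% of all probe sets called. With the block 4 of the 9 were called higher and 2 lower, beside 7293 of 19342 probe sets called. Lncpint, an RNA induced by p53, had the largest fall of all 1225 members. Its knockout values were 4.18, 4.07 and 4.01 and its control values 5.71, 5.75 and 5.32. The groups stood more than 1 log2 unit apart, and the change was -1.51 ± 0.11, a 2.85-fold lower signal (adjusted p = 2.45e-05). Mkln1, a coding gene of the same region, stood at 4.62 ± 0.05 in the knockout and 4.76 ± 0.08 in control (change -0.13 ± 0.06, adjusted p = 0.146). Trp53cor1 (lincRNA-p21), another p53-induced RNA, was not called, with knockout values of 4.42, 4.63 and 4.39 among control values of 4.19, 4.44 and 4.45 (change 0.12 ± 0.09, adjusted p = 0.334). Its coding neighbour Cdkn1a, the cell cycle inhibitor p21, fell by 1.08 ± 0.06 (adjusted p = 5.15e-06).

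Morrbid, an RNA known to restrain the pro-apoptotic gene Bcl2l11 (Bim) beside it in short-lived myeloid cells, had knockout values of 3.28, 3.34 and 3.13 and control values of 2.61, 2.66 and 2.86. It rose by 0.54 ± 0.08 (adjusted p = 0.00186) with no overlap between groups. Bcl2l11 had knockout values of 5.51, 5.48 and 5.37 and control values of 6.67, 6.63 and 6.46, and fell by 1.13 ± 0.07 (adjusted p = 1.40e-05). Lockd, transcribed next to the cell cycle inhibitor Cdkn1b, had knockout values of 5.66, 5.49 and 5.68 and control values of 5.35, 5.04 and 5.17, a rise of 0.43 ± 0.09 (adjusted p = 0.00759). Cdkn1b itself was at 3.58 ± 0.12 in the knockout and 3.74 ± 0.04 in control (change -0.16 ± 0.07, adjusted p = 0.129). Morrbid and the myeloid markers given above were higher in the same knockout arrays, and a link between them was not tested.

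Pvt1, the neighbour of Myc, did not differ beyond its spread, at 2.16 ± 0.08 in the knockout and 2.15 ± 0.06 in control, while Myc was called higher by 0.81 ± 0.06 (adjusted p = 4.13e-05). Trp53cor1, Pvt1 and Neat1, which is also on this list and given below, were not called with the block either (adjusted p = 0.214, 0.866 and 0.0583). AI662270 and Bvht were not called in the main comparison and were called with the block. AI662270 had a change of 0.23 ± 0.10 (adjusted p = 0.0961, with the block 0.0143) and Bvht, known from heart development, one of 0.27 ± 0.10 (adjusted p = 0.0616, with the block 0.0238). Of the same list, Dnmt3aos, Lncenc1, Pantr1, Ttc39aos1 and Xist lay below the level threshold.

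Nuclear and X-linked lncRNAs moved in both directions. Of 9 members, 3 were called lower (Malat1, Firre and Kcnq1ot1) and 1 higher (Ftx), with a median change of -0.14. Over all probe sets 12.2% were called lower and 19.0% higher. Malat1, an abundant RNA of nuclear speckles, had knockout values of 7.99, 7.78 and 7.92 and control values of 8.56, 8.65 and 8.67. It fell by 0.73 ± 0.07 (adjusted p = 0.000125), and every knockout array lay below every control array. Firre, an X-linked RNA that organises nuclear contacts between chromosomes, had knockout values of 5.39, 5.20 and 5.24 and control values of 5.74, 5.62 and 5.65, and fell by 0.39 ± 0.07 (adjusted p = 0.00358). Neat1, the scaffold of paraspeckles transcribed beside Malat1, was lower on average but its groups overlapped (6.40 ± 0.06 in the knockout and 6.56 ± 0.11 in control, change -0.16 ± 0.07, adjusted p = 0.125). Norad, which binds Pumilio proteins, had a change of -0.14 ± 0.06 (adjusted p = 0.127), and Oip5os1 (Cyrano), which directs the decay of miR-7, one of -0.14 ± 0.08 (adjusted p = 0.246). Tug1 was at 4.91 ± 0.04 in the knockout and 4.91 ± 0.06 in control (change -0.00 ± 0.06, adjusted p = 0.973), and Miat had a change of 0.09 ± 0.06 (adjusted p = 0.299).

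Both imprinted members were called lower, beside 12.2% of all probe sets called lower, and 2 members are too few to describe imprinted lncRNAs. Of the same list, Airn, Nctc1 and Snhg14 lay below the level threshold. Peg13, a paternally expressed RNA within the coding gene Trappc9, had knockout values of 4.85, 4.88 and 4.90 and control values of 5.85, 5.85 and 5.87. The SD was 0.02 in the knockout and 0.01 in control, and Peg13 fell by 0.98 ± 0.05, or 1.97-fold (adjusted p = 5.74e-06). Trappc9 stood at 5.07 ± 0.12 in the knockout and 5.25 ± 0.14 in control (change -0.18 ± 0.09, adjusted p = 0.139). Kcnq1ot1, the paternal antisense RNA that silences the Kcnq1 domain, had knockout values of 4.01, 3.86 and 3.89 and control values of 4.26, 4.14 and 4.16 (change -0.27 ± 0.07, adjusted p = 0.0159), and was not called without knockout replicate 3 (adjusted p = 0.0571). Cdkn1c, a gene of that domain and a cell cycle inhibitor of quiescent stem cells, had a change of 0.14 ± 0.08 (adjusted p = 0.180), and Kcnq1 one of 0.06 ± 0.06 (adjusted p = 0.424).

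Among 5 lncRNAs of the HOX clusters, which hold the patterning genes that also mark early blood progenitors, 2 of the Hoxb cluster were called higher and none lower, beside 19.0% of all probe sets called higher. Hoxb5os had knockout values of 4.28, 4.33 and 4.30 and control values of 4.04, 4.00 and 4.02, a rise of 0.29 ± 0.05 (adjusted p = 0.00472). Hoxb3os stood at 3.30 ± 0.02 in the knockout and 3.10 ± 0.09 in control (change 0.20 ± 0.06, adjusted p = 0.0418), and of the 6 fits that each left out 1 array only that without control replicate 2 kept the call (the others gave 0.0801 to 0.122). The coding genes Hoxb3 (0.16 ± 0.05, adjusted p = 0.0465) and Hoxb2 (0.29 ± 0.07, adjusted p = 0.0105) were called higher as well, and Hoxb5 was not (-0.04 ± 0.10, adjusted p = 0.760). Hotairm1, Hoxaas3 and Hoxd3os1 had changes of 0.04 to 0.07 and were not called.

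Of 5 members of the immune list, Morrbid alone was called (20.0%), beside 31.2% of all probe sets called and 19.0% called higher. Carlr, Gm16685, Ifngas1, Nron, Ptgs2os2 and Ttc39aos1 of this list lay below the level threshold. Ptgs2os lay near the threshold at 1.96 ± 0.03 in the knockout and 1.99 ± 0.05 in control, although its coding neighbour Ptgs2, the inducible cyclooxygenase, fell by 1.75 ± 0.09 (adjusted p = 5.37e-06). Mirt1 had a change of -0.11 ± 0.06 (adjusted p = 0.169), Mirt2 one of 0.18 ± 0.09 (adjusted p = 0.167, and 0.0258 without knockout replicate 1) and AU020206 one of 0.01 ± 0.06 (adjusted p = 0.912).

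Members that changed by at least 2-fold were Lncpint, Phxr4, 0610039H22Rik, 6330407A03Rik and Gm20199, which fell, and Slc36a3os, which rose. The share of all probe sets at 2-fold was not counted, so nothing is read from these directions. At 1.5-fold, 1.39% of members were called lower and 0.327% higher, beside 2.39% and 1.77% of all probe sets. Phxr4 had knockout values of 4.38, 4.36 and 4.33 and control values of 5.85, 5.82 and 5.80, a change of -1.47 ± 0.05 (adjusted p = 1.07e-06). It lies inside Maml2, a coactivator of Notch signalling, on the same strand, and Maml2 fell by 0.43 ± 0.08 (adjusted p = 0.00552). The RNA 0610039H22Rik overlaps Msi2, a stem cell RNA-binding protein, on the opposite strand. It had knockout values of 3.11, 3.14 and 2.62 and control values of 4.43, 4.01 and 4.40 (change -1.32 ± 0.15, adjusted p = 0.000365), and Msi2 fell by 0.38 ± 0.06 (adjusted p = 0.00225). The RNA 6330407A03Rik, whose span overlaps the kinase gene Lyn, had knockout values of 3.66, 4.04 and 4.18 and control values of 5.31, 5.35 and 5.11 (change -1.30 ± 0.13, adjusted p = 0.000126).

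Further falls among members with established names were those of Tincr, an RNA of epidermal differentiation (-0.74 ± 0.08, adjusted p = 0.000192), Gdap10 (-0.63 ± 0.11, adjusted p = 0.00343) and Zfp335os (-0.42 ± 0.07, adjusted p = 0.00274). Rab10os fell by 0.41 ± 0.07 (adjusted p = 0.00277) and Rab10, on the other strand, by 0.22 ± 0.06 (adjusted p = 0.0278). Tbrg3, inside Tcf20, fell by 0.30 ± 0.10 (adjusted p = 0.0428), but was not called without knockout replicate 2, knockout replicate 3, control replicate 1 or control replicate 2 (adjusted p 0.0733 to 0.137). Of those with provisional symbols, Gm26583 had knockout values of 2.06, 1.99 and 2.13 and control values of 2.94, 3.39 and 2.81, and A930013F10Rik had a change of -0.87 ± 0.10 (adjusted p = 0.000286). The knockout values of Gm26583 were close to the level threshold, so its change of -0.99 ± 0.13 (adjusted p = 0.000763) ended in a dim signal.

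The largest rise was that of Slc36a3os, antisense to a gene of the amino acid transporter family. Its knockout values were 3.71, 3.47 and 4.21 and its control values 2.62, 2.92 and 2.57, and the change was 1.09 ± 0.17, or 2.13-fold (adjusted p = 0.00180). The knockout arrays spread widely (SD 0.38) but lay above all control arrays. Slc36a3 itself was close to the threshold and was not called (0.10 ± 0.07, adjusted p = 0.265). The next was I730030J21Rik, with knockout values of 6.92, 6.86 and 6.84 and control values of 6.08, 5.92 and 5.85, a rise of 0.92 ± 0.07 (adjusted p = 3.57e-05). Its nearest coding gene Galnt6, a glycosyltransferase, rose by 0.58 ± 0.07 (adjusted p = 0.000489).

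Other members with established names that rose were Map2k3os (0.33 ± 0.06, adjusted p = 0.00392), Ptprtos (0.35 ± 0.06, adjusted p = 0.00305), Dlx6os2 (0.32 ± 0.06, adjusted p = 0.00593) and Platr27 (0.36 ± 0.11, adjusted p = 0.0311). Platr27 lost its call when knockout 1, knockout 3, control 2 or control 3 was left out (adjusted p 0.0591 to 0.100). Gm14636 (0.63 ± 0.13), Gm5115 (0.59 ± 0.10), Gm15915 (0.56 ± 0.10) and D730005E14Rik (0.53 ± 0.10) were the next largest rises with provisional symbols, at adjusted p-values of 0.00719, 0.00225, 0.00294 and 0.00465. Gm5115 passed the level threshold only through the knockout, at 2.30 ± 0.16 against 1.71 ± 0.14 in control. D730005E14Rik overlaps the antiviral gene Apobec3 on the opposite strand, and Apobec3 was also called higher (0.28 ± 0.06, adjusted p = 0.00688).

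**Figure D2:**
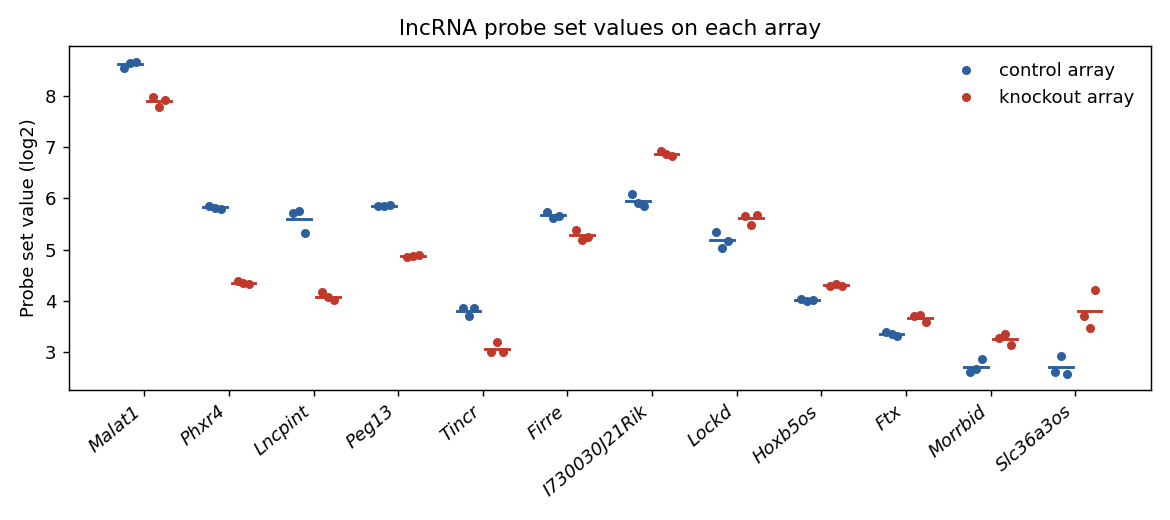
Log2 probe set values of 12 named lncRNAs on each of the 3 control arrays (blue) and 3 knockout arrays (red), with lines at the group means. All 12 were picked from the called members, and in all 12 the groups do not overlap. Groups did not overlap for 27.5% of all members and 48.0% of all probe sets. Phxr4, Peg13 and Hoxb5os show the tightest replicates, and Slc36a3os the widest.

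Over the whole set, 168 of 1225 lncRNA probe sets were called (13.7%), against 31.2% of all 19342 probe sets tested and 29.9% of the protein-coding ones. Of the members, 105 were called higher (8.57%, against 19.0% of all) and 63 lower (5.14%, against 12.2% of all). At a fold of at least 1.5, 4 were higher (0.327%, against 1.77% of all) and 17 lower (1.39%, against 2.39% of all). Groups did not overlap for 337 members (27.5%), against 48.0% of all probe sets. The median change was 0.06 over the members and 0.07 over all, so the members as a whole were not shifted away from the rest. With the replicate block the members called higher numbered 159 and those called lower 77, and 167 of the 168 main calls were among them. The block fit called 7293 of all 19342 probe sets. Without knockout replicate 1, 111 members were called, 58 of them higher, and without control replicate 1, 64 were called higher. Over all 19342 probe sets these fits called 4514 and 4806.

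**Figure D3:**
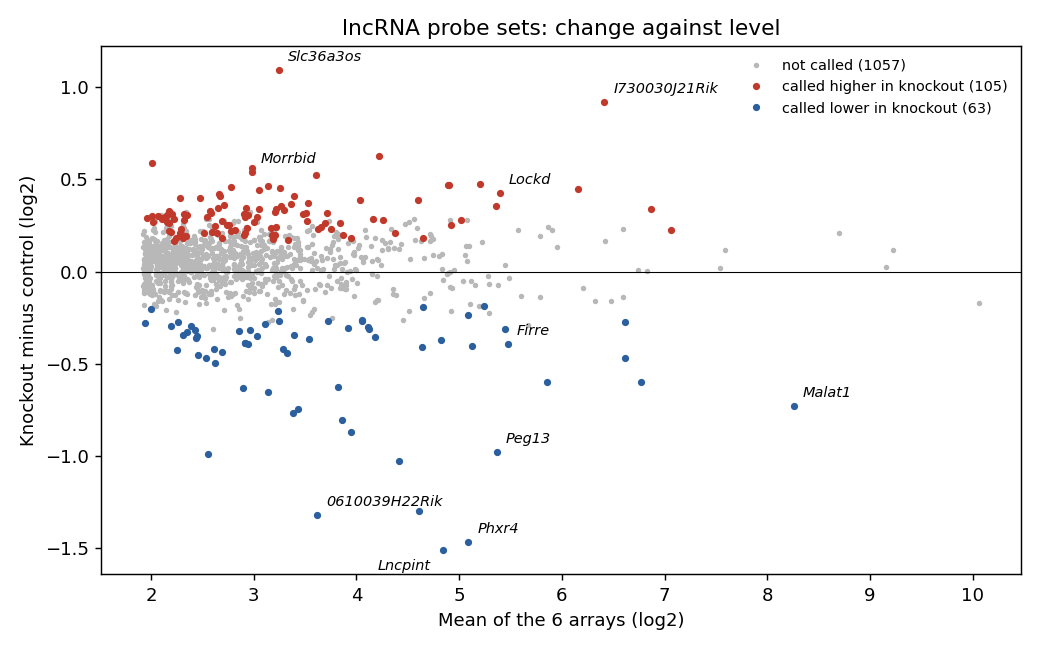
Change (knockout minus control, log2) of the 1225 lncRNA probe sets against their mean over the 6 arrays (log2), with 105 called higher in red, 63 called lower in blue and 1057 not called in grey. Of the points, 86.9% lie within 0.25 of 0, and the changes farthest from 0 are falls, led by Lncpint at -1.51.

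A call depends on signal, so the share called was set beside that of protein-coding probe sets of like signal. Levels of different probe sets also reflect their probes, so the bands order signals and not amounts of RNA. Between 1.92 and 2.5, 7.42% of 539 lncRNA probe sets and 8.32% of 1790 protein-coding ones were called. Between 2.5 and 3.5 the shares were 15.1% of 450 and 17.1% of 2644. Between 3.5 and 5 they were 22.6% of 177 and 33.9% of 4148, and at 5 and above 33.9% of 59 and 40.9% of 5028. The lncRNA share was lower in each band. Of the 59 brightest lncRNA probe sets, 8 were called higher and 12 lower, among them Malat1, Peg13, Phxr4, Firre and 2610307P16Rik on the lower side and I730030J21Rik, Lockd and Rab26os on the higher. These shares are a description and no test was made of the gap.

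**Figure D4:**
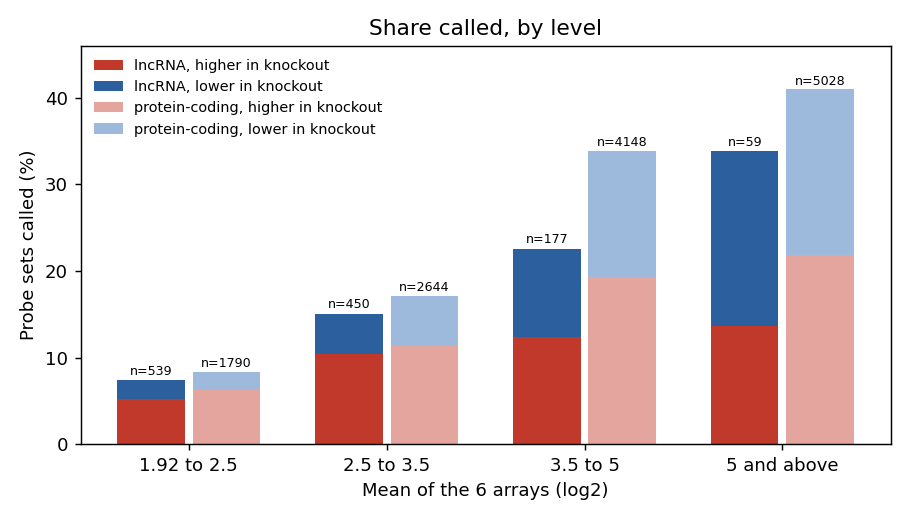
Share of probe sets called (%), higher in the knockout (red) and lower (blue), in 4 bands of the mean over the 6 arrays (log2), for lncRNAs (dark) and protein-coding genes (pale), with the number of probe sets above each bar. The share grows with level in both kinds, from 7.42% to 33.9% for lncRNAs and from 8.32% to 40.9% for protein-coding genes.

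At the edge of the level threshold, 5730488B01Rik (1.923) and 4930465M20Rik (1.924) lay just inside and 4930473A02Rik (1.922) and Gm15510 (1.920) just outside. Of the called members, 7 had 1 group mean under the threshold. When the 2201 dimmer lncRNA probe sets were tested as well, 24 of them were called higher and 9 lower. That fit, without the level filter, called 5515 of all 31228 probe sets and 125 of the 1225 members. For 12 member genes with more than 1 probe set the probe sets did not always agree. Of 3 probe sets named for Bc1, a small brain RNA with many copies in the genome, 1 had a change of 0.23 (adjusted p = 0.0437) and the others 0.00 and 0.16, and the IDs of those others name chromosomes other than that of the RefSeq gene. One probe set of 4732440D04Rik had a change of -0.63 (adjusted p = 0.000101) and the other 0.09 (adjusted p = 0.531). The 2 probe sets of 4930558F17Rik held identical values and are 1 measurement counted as 2 probe sets.

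By position in the RefSeq annotation, 591 members lay between coding genes, 405 overlapped a coding gene on the opposite strand, 21 overlapped one on the same strand and 208 overlapped one with a strand not listed. Of the 21 same-strand members, 6 were called lower and 2 higher (38.1% called, against 31.2% of all probe sets and 13.7% of all members), and the 15 that lie wholly inside a coding gene gave 6 lower and 1 higher with a median change of -0.20. These 6 were Phxr4 in Maml2, Gm20199 in Arih1, 4930405O22Rik in Fbxl17, Gdap10 in Nampt, 4931406H21Rik in Zmiz1 and Tbrg3 in Tcf20. In 5 of them the coding gene was called lower too. Gm20199 fell by 1.03 ± 0.16 (adjusted p = 0.00168) and Arih1 by 0.34 ± 0.06 (adjusted p = 0.00218). The RNA 4931406H21Rik fell by 0.41 ± 0.06 (adjusted p = 0.00179) and Zmiz1, a transcriptional coactivator, by 0.41 ± 0.08 (adjusted p = 0.00460). Nampt was the exception, with a change of -0.11 ± 0.10 (adjusted p = 0.454). How much of each signal comes from the coding gene's own precursor RNA was not tested.

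Across the 16 same-strand pairs in which both were tested, the changes correlated at Pearson's r = 0.79 (Spearman's rho = 0.79). Across 340 opposite-strand pairs r was 0.17 (rho = 0.12), across 157 overlaps with a strand not listed 0.30 (rho = 0.27), and across 470 pairs of a lncRNA and its nearest coding gene without overlap 0.14 (rho = 0.16). The points share arrays, and the first group is small, so these are descriptions. Where both members of an opposite-strand pair were called, 12 of 19 pairs moved the same way and 7 in opposite directions.

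**Figure D5:**
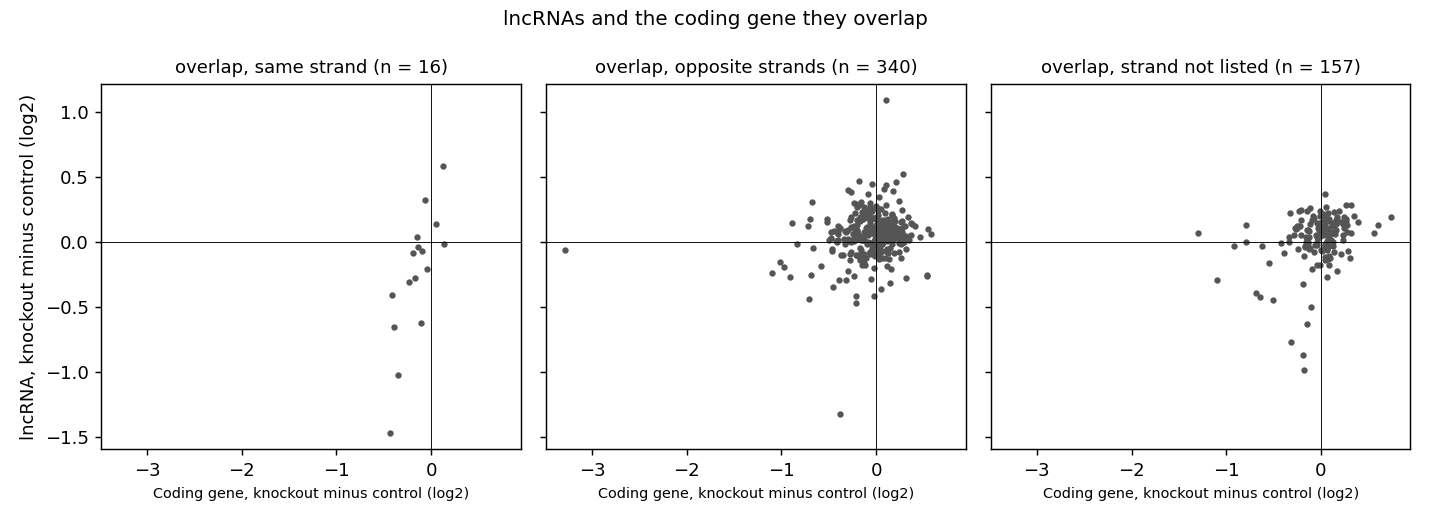
Change of each lncRNA against that of the coding gene it overlaps (both knockout minus control, log2), for 16 pairs on the same strand, 340 on opposite strands and 157 with a strand not listed. The same-strand points run from the lower left, with Phxr4 at -1.47, while the opposite-strand points form a cloud around 0.

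Among lncRNAs that start within 1000 bases of the start of a coding gene on the other strand (180 members), 18 were called higher and 5 lower (12.8% called, near the 13.7% of all members and under the 31.2% of all probe sets). Map2k3os and Map2k3, a kinase upstream of p38, moved apart. Map2k3os had knockout values of 3.43, 3.43 and 3.50 and control values of 3.14, 3.06 and 3.19, while Map2k3 stood at 5.94 ± 0.09 in the knockout and 6.98 ± 0.10 in control (change -1.04 ± 0.07, adjusted p = 2.19e-05). The pairs 2700046G09Rik (0.31, adjusted p = 0.00572) with Sgms1 (-0.68, adjusted p = 0.000212) and 4930413G21Rik (0.18, adjusted p = 0.0466) with Rbbp6 (-0.51, adjusted p = 0.000659) also moved apart. Of 8 divergent pairs with both called, 4 moved the same way, among them Gm16576 (-0.35, adjusted p = 0.0431) with Sun2 (-0.36, adjusted p = 0.00405). Across 157 divergent pairs r was 0.11 (rho = 0.12). Of 76 members named as opposite strand transcripts, 10 were called higher and 2, Zfp335os and Rab10os, lower (15.8% called, beside 13.7% of all members and 31.2% of all probe sets).

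Promoter letters were set beside the calls. A PU.1 match (GAGGAAG) lay in the promoter of 13 of 45 genes called lower (28.9%), 12 of 87 called higher (13.8%), 14.9% of the 968 member genes with a promoter sequence and 13.5% of all 27025 promoters in the table. The E-box lay in 8.89% of those called lower, 5.75% of those called higher and 7.24% of all promoters, and the AP-1 letters in 2.22%, 6.90% and 5.17%. TATAAA lay in 15.6%, 6.90% and 14.2% of the same sets. The GATA letters lay in 1 promoter of each called set, and the RUNX letters in 6.67%, 4.60% and 5.37%. No test was made of these shares. Within 1 Mb of the deleted gene Mir21a, 2 members were found, Gm20759 (-0.12 ± 0.09, adjusted p = 0.320) and 2610027K06Rik (0.10 ± 0.07, adjusted p = 0.268), and neither was called.

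Several well-known host and regulatory lncRNAs share a probe set with another gene in the annotation and were not analysed here, among them Gas5, Snhg1, Dancr, Meg3, Mir17hg and Dleu2.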

How the data were processed

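LSK cells of 3 knockout and 3 control samples were measured on 1 array each. The authors deposited 1 table of log2 values, made with RMA per the submitters' processing notes, a method that corrects background, equalises array distributions and summarises probes, so a shift common to most transcripts would not be seen. The values were taken as log base 2 because of their range, and the array design, RMA version and genome build are not given in the sources used here. Array number limits the precision, and files hold no depth.

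Names came from the GEO platform annotation, updated through RefSeq (GRCm38.p6) by Entrez ID (852 members) or symbol (373 members), which changed 39 symbols. Of 65956 probe sets, 31228 stood for 1 gene, 1522 for several and 33206 were not listed. The comparison used lmFit and eBayes (two-sided) of limma 3.58.1, run in R 4.3.3, over all 19342 probe sets of 1 gene at or above the level threshold, without a block. The steps were tested on simulated data. RefSeq coordinates served only to find neighbours and hosts. Named members were the microRNA and snoRNA hosts, the lists in the text, the 10 highest and 10 lowest called changes among established symbols, the 5 and 5 among provisional ones, and those at the threshold. Other genes named were chosen after their values were seen. The members and lists were chosen with earlier results of these data known.

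Groups and replicate numbers came from sample titles. Deviations from the group means correlated between same-numbered arrays at 0.22, 0.33 and 0.10, so the numbers were taken to pair the samples by a rule asking for 0.1 in each pair. The third is weak, and knockout 3 correlated at 0.12 with control 1. Blocked values stand beside the named members, list counts and total counts that they change. Counts by level band, position, fold and promoter letters, and values of coding genes and small RNAs, are from the fit without the block only. Alternatives were other filters, centring, a second quantile normalization, an intensity trend, array weights, no variance moderation, the block and leaving out each array.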

Additional observations from a re-analysis of the deposited data

How the results depend on the processing

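The 168 called of 1225 members became 59 of 198 (29 higher, 30 lower) when probe sets below the 75th percentile were left out. That fit called 5092 of all 11571 probe sets. Without variance moderation 62 members were called (31 higher, 31 lower), beside 2920 of all 19342 probe sets. With p-values adjusted over every probe set at or above the median, named or not, 105 were called, 57 of them higher. That fit called 8211 of 32985 probe sets. With the replicate block 159 were called higher, beside 7293 of 19342 probe sets called in either direction. Leaving out 1 array at a time gave 111 to 150 called, 58 to 92 higher and 47 to 58 lower. Over all 19342 probe sets these fits called 4205 to 5238. No member called in the main comparison changed sign in any alternative. Lncpint, Phxr4, Peg13, Malat1, Firre, I730030J21Rik, Hoxb5os, 2610307P16Rik, 6330407A03Rik, A930013F10Rik and Rab10os were called in all 16 alternatives, and the block ended no call of a named member. The calls of Slc36a3os, Lockd, Gm20199, Gdap10, Gm14636, Gm5115, Gm15915 and D730005E14Rik were lost only without variance moderation (adjusted p 0.0521 to 0.0947). Signal near the threshold limits the dimmer members.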
